A study of Mus musculus with 2 samples.

Results

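The genes described are 30 markers of the projection neuron subclasses of cortical layer 5, out of 43346 Ensembl genes, 21474 of them protein-coding, in the deposited gene tables. They were taken as a fixed list of names, which was chosen with earlier results of these data known. The list holds 5 genes shared by layer 5 neurons, 6 of extratelencephalic neurons, 4 of intratelencephalic neurons and 6 of near-projecting neurons. The other 9 are of subcerebral projection neurons and the deep layers. All 30 were found in the tables, 29 by symbol and Diap3 through its synonym Diaph3. Each was measured in 2 RNA-seq libraries, each from an area of layer 5 covering 8000 square microns, cut by laser capture out of mouse cerebral cortex and entered in the labels as 50 cells. Libraries followed a Smart-seq type protocol. The tissue came from a wild-type adult male aged 8 months, called C57Bl6 in one label and B6NCrl in another. Biological replicate numbers 1 and 2 are given, with the same donor for both, so the libraries are taken here as areas of 1 animal. There was 1 group, no treatment, and no contrast between conditions.

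Layer 5 is the main output layer of the cortex. Its extratelencephalic neurons send axons to targets that include the brainstem and spinal cord, and are often large, thick-tufted cells. Its intratelencephalic neurons project within the cortex and to the striatum, on both sides of the brain, and its near-projecting neurons make mostly local connections. Whether each captured area held all of these classes was not tested. An area can hold any of these cells together with interneurons, glia and vessels. The values are therefore sums over a mixture, and fewer cells of a type and less RNA per cell cannot be told apart.

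Of the 30 members, 20 have at least 1 entry in the RefSeq promoter table and 6 have more than 1. For 4 of those 6, Rbp4, Sulf2, Lmo4 and Lypd1, the deposited transcripts could be placed at separate starts, and the 140 bases before each such start are printed to show how unlike the starts of a gene are. Bcl6 and Slc17a8 are not shown, since 1 transcript held nearly all of Bcl6 and Slc17a8 was under 1 TPM. The third start of Lmo4, which lies inside the exon of another transcript, is left out as well. Of the windows shown, Rbp4 start 2 holds 17 exonic bases and Lypd1 start 1 holds 21. The sequences are from RefSeq on GRCm38.p6, run 5′ to 3′ along the gene's own strand, and end at the base before the start. Capitals mark motifs found on either strand, which may overlap. The TATA box was searched for as the letters TATAAA, and the CCAAT box by the letters of its own name. The GC box was searched for as the letters GGGCGG. The core of the cAMP response element was searched for as the letters TGACG.
Rbp4 start 1, chr19:38125322-38125461, minus strand: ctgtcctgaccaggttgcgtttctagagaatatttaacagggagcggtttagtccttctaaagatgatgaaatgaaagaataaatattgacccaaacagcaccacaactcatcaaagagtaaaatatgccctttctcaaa
Rbp4 start 2, chr19:38124812-38124951, minus strand: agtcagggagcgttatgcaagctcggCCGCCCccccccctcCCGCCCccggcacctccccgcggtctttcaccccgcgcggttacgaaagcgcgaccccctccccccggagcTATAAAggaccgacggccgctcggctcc
Sulf2 start 1, chr2:166155684-166155823, minus strand: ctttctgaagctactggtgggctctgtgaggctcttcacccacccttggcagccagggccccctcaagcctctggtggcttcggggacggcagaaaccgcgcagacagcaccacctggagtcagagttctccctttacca
Sulf2 start 2, chr2:166155286-166155425, minus strand: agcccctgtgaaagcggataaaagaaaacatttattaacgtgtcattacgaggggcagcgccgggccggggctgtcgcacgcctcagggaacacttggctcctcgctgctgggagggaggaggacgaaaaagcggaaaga
Lmo4 start 1, chr3:144205256-144205395, minus strand: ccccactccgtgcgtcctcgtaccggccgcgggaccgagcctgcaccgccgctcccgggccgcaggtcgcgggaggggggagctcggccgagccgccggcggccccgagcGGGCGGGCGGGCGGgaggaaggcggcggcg
Lmo4 start 2, chr3:144202397-144202536, minus strand: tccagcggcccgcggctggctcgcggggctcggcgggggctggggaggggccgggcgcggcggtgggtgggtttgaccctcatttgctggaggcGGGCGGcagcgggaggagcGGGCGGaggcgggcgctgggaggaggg
Lypd1 start 1, chr1:125912929-125913068, minus strand: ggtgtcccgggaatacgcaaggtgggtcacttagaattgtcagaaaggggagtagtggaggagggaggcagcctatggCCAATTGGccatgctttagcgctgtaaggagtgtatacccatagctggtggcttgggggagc
Lypd1 start 2, chr1:125912215-125912354, minus strand: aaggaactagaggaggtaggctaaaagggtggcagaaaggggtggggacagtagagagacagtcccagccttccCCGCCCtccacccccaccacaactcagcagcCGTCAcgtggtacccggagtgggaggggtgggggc
Lypd1 start 3, chr1:125911388-125911527, minus strand: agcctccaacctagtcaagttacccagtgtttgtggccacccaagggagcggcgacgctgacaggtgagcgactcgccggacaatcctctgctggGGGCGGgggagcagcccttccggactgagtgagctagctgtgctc

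Rbp4 shows the plainest contrast between starts. The window before its second start holds 1 TATAAA and 2 GC boxes, with a GC content of 72.9% and 18 CpG. The TATAAA lies from 28 to 23 bases before the RefSeq start at 38124811. The transcript placed there, Rbp4-202, begins at 38124828 in the GENCODE M21 annotation, inside the window and so nearer to the TATAAA. The window before its first start holds none of the 4 motifs, with a GC content of 37.9% and 2 CpG. The transcript at the second start, Rbp4-202, made up 100% of the gene's TPM in replicate 1 and 95.6% in replicate 2. The transcript at the first start, Rbp4-201, had 0 counts in replicate 1 and 99.8 in replicate 2. TPM is a level scaled for transcript length and library size.

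Lmo4 was split more evenly. Its first start, with 3 overlapping GC boxes, 26 CpG and a GC content of 84.3%, held 45.3% of the gene's TPM in replicate 1 and 36.3% in replicate 2. Its second start, with 2 GC boxes and a GC content of 80.7%, held 53.1% and 61.1%. The third start held 1.62% and 2.08%. By TPM the second start led in both areas and the first start came next. By counts the first start led in replicate 1, with 2422 against 2244, and the second in replicate 2, with 2393 against 1792. The transcript at the second start, Lmo4-203, is 1338 bases long as deposited, against 1417 in the GENCODE M21 annotation.

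Sulf2 and Lypd1 each drew on several starts. Transcripts at the first start of Sulf2 held 71.0% of its TPM in replicate 1 and 67.0% in replicate 2, and those at its second start 10.7% and 12.9%. Neither of those windows holds any of the 4 motifs. For Lypd1 the first start held 46.8% and 63.7% of TPM, the second 14.5% and 13.1%, and the third 27.7% and 23.2%. By counts the second Lypd1 start led in replicate 1, with 367 against 250 at the first and 155 at the third. In replicate 2 the first led by counts, with 163 against 159 at the second and 62 at the third. The first Lypd1 window has a CCAAT box on both strands at the same place, the second has 1 GC box and 1 TGACG, and the third has 1 GC box. The deposited Sulf2-207, which had 26.4% and 35.8% of the gene's TPM and is counted at the first Sulf2 start, is 1802 bases long, against 3808 in the GENCODE M21 annotation by which it was placed, so the share of that start is uncertain. Each of these values rests on the division of reads among transcripts that share most of their sequence, so it is an estimate in each library.

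**Figure D1:**
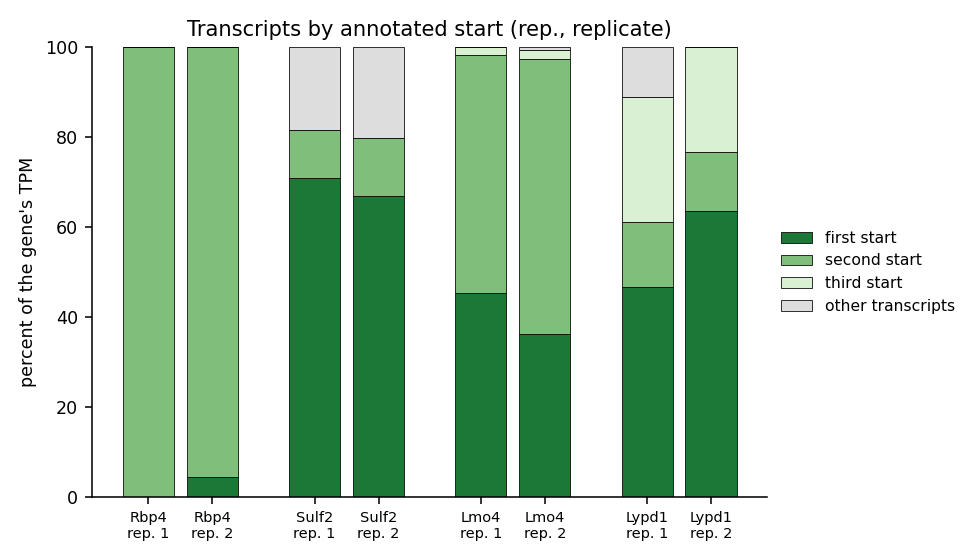
Percent of each gene's TPM (vertical axis) held by transcripts at each annotated RefSeq start, for Rbp4, Sulf2, Lmo4 and Lypd1, with 1 bar per library. The second start of Rbp4 holds 100% and 95.6%, whereas Lmo4, Sulf2 and Lypd1 divide between starts, in the same order in both libraries.

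Across the 28 promoter entries of the 20 members, 140 bases each, a GC box was present in 13 (46.4%), against 28.05% of the 32851 windows of the same length in the whole table. TATAAA was in 3 (10.7%) against 7.21%, CCAAT in 4 (14.3%) against 23.4%, and TGACG in 5 (17.9%) against 12.8%. The median member window had 8 CpG and a GC content of 62.5%, against 3 CpG and 54.3% over the table. The 3 members with TATAAA were Rbp4, Igfbp4 and Slco2a1. These are matches of letters in fixed windows, and entries of 1 gene are not independent.

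Replicate 1 held 26059117 expected counts and replicate 2 held 28276843, of which spike-ins took 7.19% and 7.94%. Expected counts are estimated reads and can hold fractions. Other layer 5 genes, of no single subclass list here, were present. Of these 12, 10 reached 1 TPM in both areas, led by Pcp4, Sox5 and Fezf2, and 1 was beyond 2-fold between the areas. Genes of other layers were also present, with summed levels of 36.0 and 19.3 TPM over 6 layer 2/3 genes, 11.9 and 16.6 over 5 layer 4 genes, 14.3 and 39.8 over 6 layer 6 corticothalamic genes and 2.99 and 1.01 over 5 layer 6b genes. The sums of the layer 2/3 and, in replicate 2, of the layer 6 corticothalamic list exceed those of the near-projecting and extratelencephalic lists below, each of 6 genes. The layer 6 corticothalamic list was led by Rprm at 6.59 and 23.8 TPM, Tle4 at 4.58 and 9.35 and Foxp2 at 2.28 and 2.87, while Osr1 had 0 counts in both areas. An SD below is the spread between these areas. The smallest p that an exact sign-flip test (two-sided) allows with 2 libraries is 0.5, so no test was made.

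Most of the subclass markers were detected, but at widely different levels. At 1 TPM or more in both areas stood 23 of 30 members (76.7%), against 51.5% of all protein-coding genes. Since the members were chosen with earlier results of these data known, that difference only describes the list. All 5 shared genes and all 4 intratelencephalic genes reached that level in both areas, with 7 of 9 subcerebral and deep layer genes, 4 of 6 near-projecting genes and 3 of 6 extratelencephalic genes. Diap3 reached it only in replicate 2, and Chrna6, Slco2a1, Stac, Slc17a8, Vwc2l and Nxph3 were under it in both. The median member stood at the 57.7 percentile of protein-coding genes by mean TPM, so as a group they were middling in abundance. The highest, Lmo4, ranked 819 of 21474. Together the 30 genes took 0.0943% of all counts in replicate 1 and 0.118% in replicate 2.

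**Figure D2:**
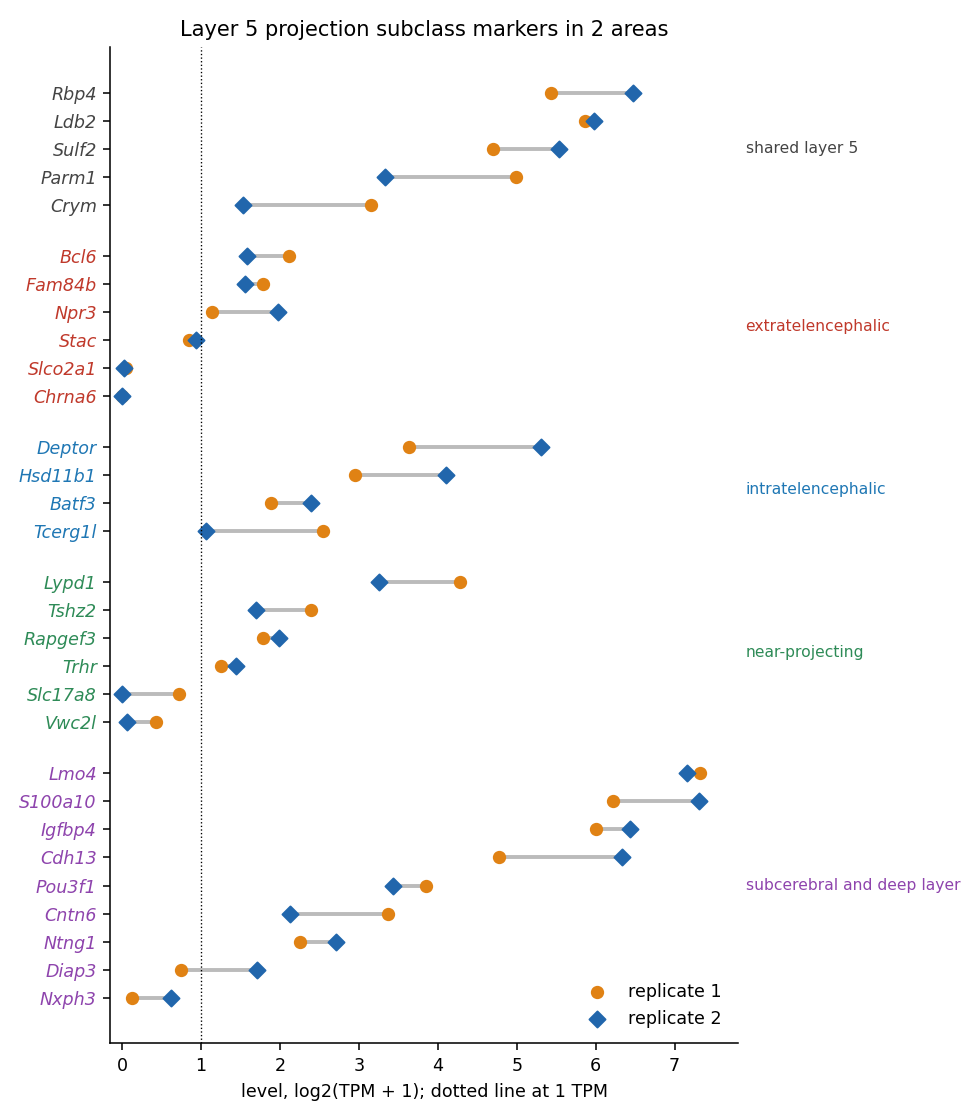
Level of each of the 30 members in log2(TPM + 1) (horizontal axis), by subclass list, with a circle for replicate 1, a diamond for replicate 2 and a bar joining them. Lmo4 is highest at 158.59 and 142.05 TPM and Chrna6 lies at 0 in both, and the extratelencephalic genes all lie at or under 3.33 TPM.

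The shared layer 5 genes were among the stronger members, with list medians of 30.7 TPM in replicate 1 and 45.3 TPM in replicate 2. Ldb2, a cofactor that links LIM domain transcription factors (ENSMUSG00000039706.7, chromosome 5 from 44472132 to 44799680, minus strand, as all positions here on GRCm38), had 57.5 TPM in replicate 1 and 62.0 TPM in replicate 2. It was the steadiest of the 5: its ratio of counts per total, replicate 1 over 2, was 0.97 with an exact Clopper-Pearson 95% interval of 0.93 to 1.02. Such intervals cover counting error only, since reads carry no molecular identifiers. The deposited TPM intervals of Ldb2, whose level is not stated, did not overlap, at 54.1 to 58.1 in replicate 1 and 58.5 to 62.6 in replicate 2. Rbp4, a secreted carrier of retinol whose Cre line is widely used to reach layer 5 (chromosome 19, 38116629 to 38125281, minus strand), had 753 and 1658 counts, or 42.1 and 88.2 TPM, in replicates 1 and 2. Its mean was 65.1 ± 32.6 TPM (SD, n = 2), the 91.6 percentile of protein-coding genes.

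The other shared genes differed in both directions. Sulf2, an extracellular enzyme that trims sulfate groups from heparan sulfate (chromosome 2, 166073089 to 166155663, minus strand), had 25.0 and 45.3 TPM. Parm1, a mucin-like membrane protein (chromosome 5, 91517615 to 91626894, plus strand), had 3287 counts and 30.7 TPM in replicate 1 against 998 counts and 9.03 TPM in replicate 2. Crym, a thyroid hormone-binding protein (chromosome 7, 120186380 to 120202111, minus strand), had 220 and 54 counts, or 7.88 and 1.89 TPM. So Parm1 and Crym were higher in the area in which Rbp4 and Sulf2 were lower, by 3.57-fold (3.33 to 3.84) and 4.42-fold (3.27 to 6.07) in counts per total. Rbp4 was 2.03-fold (1.86 to 2.21) and Sulf2 1.55-fold (1.46 to 1.65) higher in replicate 2. Exons of Ncoa3 on the opposite strand, a gene at 7.02 and 6.30 TPM, overlap 2.62% of the exon bases of Sulf2.

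The extratelencephalic genes were the lowest list, with medians of 1.01 and 1.43 TPM and summed levels of 7.82 and 7.79 TPM. No member of this list was beyond 2-fold between the areas. Bcl6, a transcriptional repressor (chromosome 16, 23965052 to 23988852, minus strand), had 246 and 152 counts, or 3.33 and 1.99 TPM. Fam84b, also named Lratd2 (chromosome 15, 60818994 to 60853778, minus strand), had 283 and 236 counts, or 2.45 and 1.94 TPM. Npr3, the clearance receptor for natriuretic peptides (chromosome 15, 11839896 to 11907287, minus strand), went the other way with 178 and 445 counts, or 1.21 and 2.93 TPM. Its ratio of counts per total was 2.30-fold (1.93 to 2.76) in favour of replicate 2, and it passed 2-fold on the log scale with a pseudocount of 0.1, at -1.21, and with CPM, at -1.10.

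The remaining extratelencephalic genes were at the edge of detection or under it. Stac, an adaptor protein, had 41 and 26 counts, or 0.80 and 0.91 TPM, and the estimated length of its transcripts differed between the libraries, so that counts and TPM gave opposite signs. Slco2a1, a prostaglandin transporter that vascular cells also make, had 5 and 1 counts, a ratio of 5.43 with an interval of 0.61 to 257. Chrna6, a nicotinic acetylcholine receptor subunit and a much used marker of a set of these neurons (ENSMUSG00000031491.9, chromosome 8 from 27403212 to 27413944, minus strand), had 0 counts in both areas. With no count seen, a level of up to 3 counts is possible, which is 0.115 CPM (counts per total, rescaled) in the first library and 0.106 CPM in the other. At this depth Chrna6 was not detectable in areas entered as 50 cells, which does not show that it was absent.

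The intratelencephalic genes stood between, with list medians of 5.79 and 10.2 TPM, and 3 of the 4 were beyond 2-fold between the areas. Deptor, an inhibitor of the mTOR kinase (ENSMUSG00000022419.11, chromosome 15 from 55112317 to 55259271, plus strand), had 1340 and 5825 counts, or 11.4 and 38.5 TPM. That is 4.01-fold (3.77 to 4.25) higher in replicate 2 by counts per total and 3.37-fold by TPM. Hsd11b1, the enzyme that regenerates active glucocorticoid inside cells (chromosome 1, 193221634 to 193264075, minus strand), had 187 and 492 counts, or 6.76 and 16.2 TPM, 2.42-fold (2.04 to 2.88) higher in replicate 2. Both genes were thus highest in the same area as Rbp4.

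The other intratelencephalic genes did not follow them. Batf3, a leucine zipper transcription factor (chromosome 1, 191097847 to 191108945, plus strand), had 41 and 58 counts, or 2.71 and 4.24 TPM. Its count ratio of 0.77, replicate 1 over 2, had an interval from 0.50 to 1.16 that includes equality, so no difference was detectable at this depth. Tcerg1l, a relative of a transcription elongation regulator (chromosome 7, 138208974 to 138397730, minus strand), had 254 and 59 counts, or 4.81 and 1.08 TPM. It was 4.67-fold (3.51 to 6.31) higher in replicate 1, the opposite of Deptor and Hsd11b1 within the same list.

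The near-projecting genes ranged from well detected to nearly absent, with list medians of 1.92 TPM in replicate 1 and 1.99 TPM in replicate 2. Lypd1, a membrane-anchored modulator of nicotinic receptors (ENSMUSG00000026344.5, chromosome 1 from 125867622 to 125913101, minus strand), led with 786 and 385 counts, or 18.5 and 8.56 TPM. It was 2.22-fold (1.96 to 2.51) higher in replicate 1. Tshz2, a zinc finger transcription factor commonly used to define these neurons (chromosome 2, 169633013 to 170071816, plus strand), had 306 and 204 counts, or 4.26 and 2.25 TPM. The opposite-strand gene Gm26883, at 0.40 and 1.15 TPM, covers 65.2% of the exon bases of Tshz2, and without a stated strand setting their reads cannot be told apart.

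The lower near-projecting genes were uneven. Rapgef3, an exchange factor switched on by cAMP (chromosome 15, 97744770 to 97767972, minus strand), had 109 and 198 counts, or 2.45 and 2.96 TPM. Trhr, the receptor for thyrotropin-releasing hormone (chromosome 15, 44196135 to 44235912, plus strand), had 116 and 92 counts but 1.39 and 1.72 TPM, so that its log2 ratio was -0.19 by TPM and 0.36 by CPM. Vwc2l, a secreted protein with von Willebrand factor C domains, had 34 and 4 counts, or 0.35 and 0.04 TPM. Slc17a8, a vesicular glutamate transporter (ENSMUSG00000019935.12, chromosome 10 from 89574020 to 89621253, minus strand), had 61 counts and 0.65 TPM in replicate 1 and 0 counts in replicate 2. The exact interval of its count ratio had a lower limit of 17.4-fold in favour of replicate 1. Set against the limit of 3 counts that a count of 0 allows, 61 counts give 22.1-fold. Both values cover counting error only, so neither is a lower limit on the difference between the areas. Its deposited TPM intervals were 0.52 to 0.88 in replicate 1 and 0.0008 to 0.088 in replicate 2. Slc17a8, Vwc2l, Lypd1 and Tshz2 were thus higher in replicate 1 by counts and by TPM, while Rapgef3 was lower there by both.

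The subcerebral and deep layer genes held the most abundant members, with summed levels of 349 TPM in replicate 1 and 486 TPM in replicate 2. Lmo4, a LIM-only transcriptional adaptor (ENSMUSG00000028266.13, chromosome 3 from 144188530 to 144205220, minus strand), had 159 and 142 TPM, or 150 ± 11.7 (SD, n = 2). S100a10, the annexin partner also known as p11 (chromosome 3, 93555080 to 93564643, plus strand), had 925 and 2049 counts, or 73.4 and 157 TPM, 2.04-fold (1.89 to 2.21) higher in replicate 2. Igfbp4, which binds insulin-like growth factors (chromosome 11, 99041244 to 99054392, plus strand), had 63.2 and 85.7 TPM. Lmo4 and Igfbp4 lay close in both areas while S100a10 did not, so the order of the highest members was not the same in the 2 areas.

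Adhesion and axon guidance genes of this list diverged. Cdh13, a membrane-anchored cadherin (ENSMUSG00000031841.14, chromosome 8 from 118283733 to 119324921, plus strand), had 1308 and 4739 counts, or 26.4 and 79.7 TPM, 3.34-fold (3.14 to 3.55) higher in replicate 2. Cntn6, a contactin (chromosome 6, 104492790 to 104863406, plus strand), had 690 and 264 counts, or 9.33 and 3.35 TPM, 2.84-fold (2.46 to 3.28) higher in replicate 1. Ntng1, a netrin that is anchored to the membrane (chromosome 3, 109780040 to 110144011, minus strand), had 344 and 510 counts, or 3.78 and 5.53 TPM. Cdh13 and Cntn6 thus went opposite ways, and Ntng1 lay between.

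The last members of the list were a transcription factor and a pair of low genes. Pou3f1, a POU domain factor of subcerebral neurons (chromosome 4, 124656807 to 124660655, plus strand), had 1084 and 818 counts, or 13.4 and 9.80 TPM. Diap3, a formin that builds actin filaments (chromosome 14, 86655367 to 87141235, minus strand), had 64 and 215 counts, or 0.67 and 2.26 TPM. Nxph3, a secreted ligand of neurexins, had 4 and 24 counts, or 0.09 and 0.54 TPM. Diap3 was 3.10-fold (2.33 to 4.16) and Nxph3 5.53-fold (1.90 to 21.9) higher in replicate 2.

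Set against each other on the log2(TPM + 1) scale, the 3 projection subclass lists kept the same order in both areas. The mean over intratelencephalic genes lay above that over extratelencephalic genes by 1.77 in replicate 1 and 2.20 in replicate 2, or 1.98 ± 0.31 (SD, n = 2). It lay above the mean over near-projecting genes by 0.94 and 1.81, or 1.38 ± 0.61. The near-projecting mean lay above the extratelencephalic mean by 0.82 and 0.40, or 0.61 ± 0.30. Each mean difference was larger than its SD, which takes no account of how the genes of a list vary among themselves. The subcerebral and deep layer list, which holds genes of subcerebral projection neurons, was not part of this ranking. Its means of 3.85 and 4.20 lay above the intratelencephalic means of 2.76 and 3.21. The low extratelencephalic level therefore applies to the 6 genes of that list only. The lists hold different genes with different levels per cell, so these differences do not give proportions of cells.

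**Figure D3:**
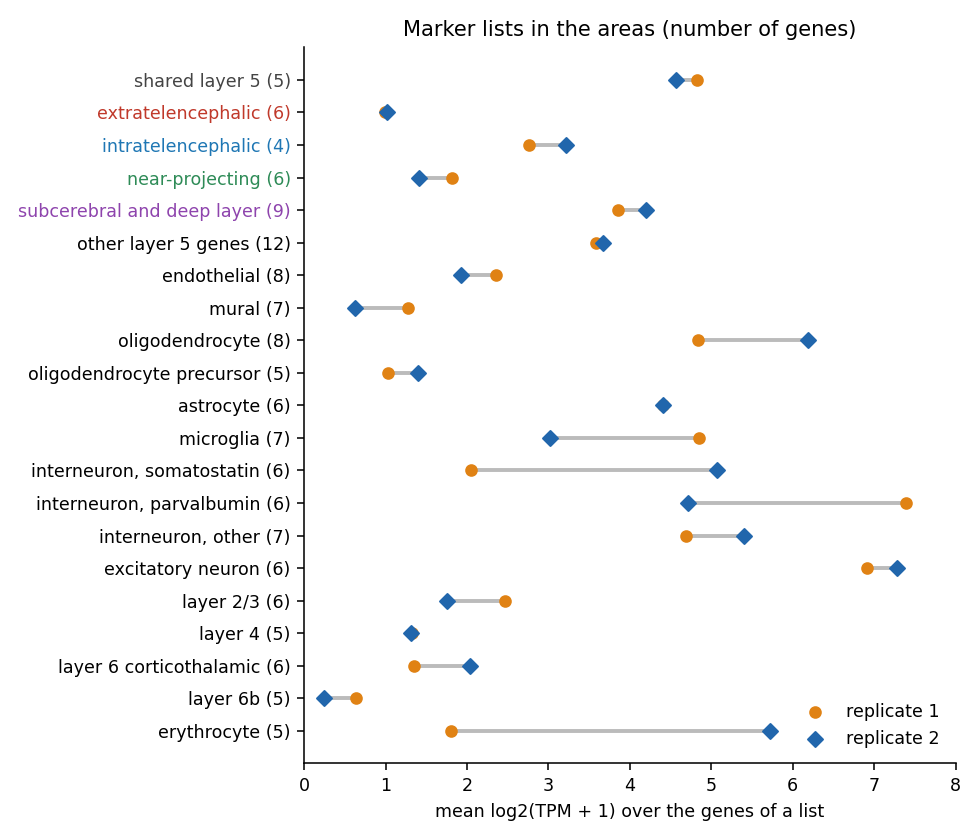
Mean log2(TPM + 1) over the genes of each list (horizontal axis, number of genes in brackets), with a circle for replicate 1 and a diamond for replicate 2. The 5 member lists are coloured: the intratelencephalic list lies above the near-projecting and extratelencephalic lists in both areas. The interneuron, microglia, erythrocyte, oligodendrocyte, mural, layer 2/3 and layer 6 corticothalamic lists are further apart than any member list.

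A larger share of the members than of all genes lay beyond 2-fold between the areas. The members were chosen with earlier results of these data known, so the excess over all genes only describes the list. At a mean of 1 TPM or more stood 24 members, and 10 of them (41.7%) were beyond 2-fold in TPM + 1, against 10.3% of 11841 protein-coding genes. Higher in replicate 1 were Crym, Parm1, Tcerg1l, Lypd1 and Cntn6, 5 members (20.8%) against 4.99% of all. Higher in replicate 2 were Rbp4, Deptor, Hsd11b1, S100a10 and Cdh13, again 5 members (20.8%) against 5.31% of all. The members just past 2-fold were Lypd1 at a log2 ratio of 1.03 and Rbp4 at -1.05, and Diap3 at -0.97 lay just short of it. With CPM Rbp4 fell short at -0.996, and with posterior mean TPM Lypd1 did at 0.999.

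These shares depend on level, since low genes vary more. Between 1 and 5 TPM, 2 of 11 members were beyond 2-fold, against 21.1% of 3330 genes. Between 5 and 20 TPM, 4 of 5 members were, against 9.86% of 4089 genes. Between 20 and 100 TPM, 3 of 6 members were, against 3.20% of 3189 genes, and between 100 and 500 TPM 1 of 2, S100a10, against 1.18% of 1020 genes. At 5 TPM and above the shares of the members were over the background, and under 5 TPM they were not. The median absolute log2 ratio of the members in these classes was 0.53, 1.15, 0.94 and 0.62, against 0.50, 0.36, 0.26 and 0.18 over all genes.

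**Figure D4:**
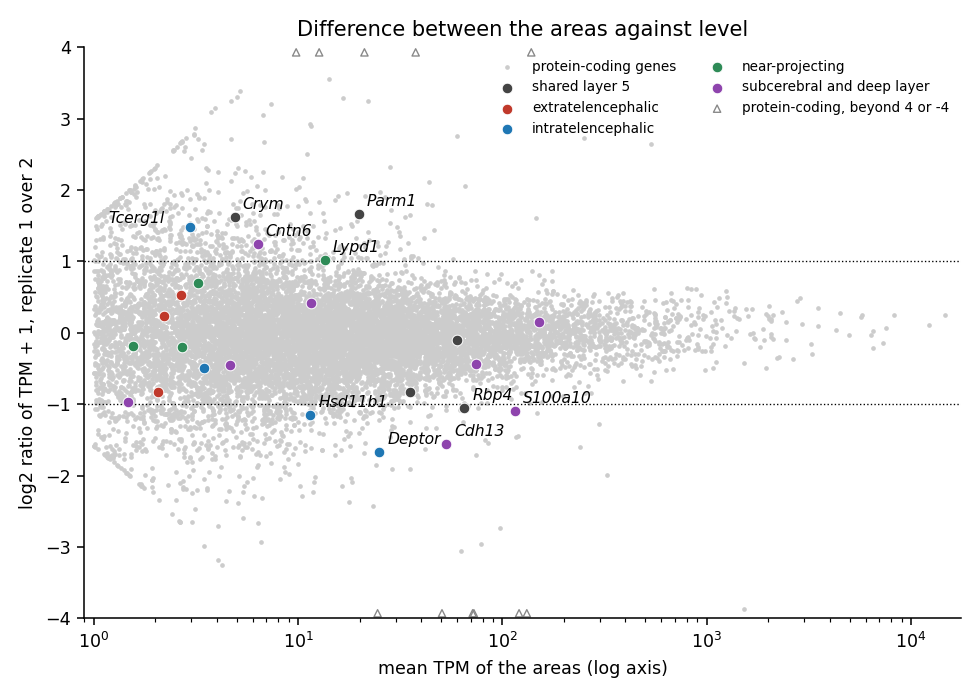
Log2 ratio of TPM + 1, replicate 1 over replicate 2 (vertical axis), against mean TPM (horizontal log axis), for 11841 protein-coding genes in grey and 24 members in the colours of their lists, with dotted lines at 2-fold. The 10 named members lie beyond the lines, 5 on each side, and triangles at the upper and lower edges mark grey genes beyond 4 or -4 on this scale.

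The direction of the difference varied by list. The median log2 ratio of the 24 members was -0.19, beside -0.046 over all protein-coding genes. Among these 24 it was -0.11 for the shared genes, 0.23 for the extratelencephalic, -0.82 for the intratelencephalic, 0.25 for the near-projecting and -0.44 for the subcerebral and deep layer genes. Over all 30 members, the low ones included, the extratelencephalic median was 0.01, the near-projecting 0.54 and the subcerebral and deep layer -0.45. The deposited TPM intervals of the areas, whose level is not stated, did not overlap for 19 of 24 members (79.2%), against 59.6% of all genes. At such a background this count says little about the members. The 5 whose intervals overlapped were Fam84b, Batf3, Trhr, Rapgef3 and Ntng1. The interval of Rapgef3 in replicate 1, 2.71 to 4.75, lies above its own TPM of 2.45, since the authors' intervals surround the posterior mean and not the TPM.

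Markers of other cell classes differed between the same areas. All 6 genes of the parvalbumin interneuron list were more than 2-fold higher in replicate 1, with a summed level of 1706 TPM against 272 TPM, led by Pvalb, Gad1 and Kcnc1. Of these, Gad1, at 438 and 65.2 TPM, is not particular to parvalbumin interneurons. In the somatostatin interneuron list 4 of 6 genes were more than 2-fold higher in replicate 2, with summed levels of 202 and 3214 TPM, led by Sst, Tac2 and Crh. Chodl had 0 counts in both, and Calb2 went the other way, with 62 and 18 counts, or 2.16 and 0.61 TPM. All 7 microglial genes were more than 2-fold higher in replicate 1 (248 and 72.8 TPM), as was 1 of 7 mural genes (23.5 and 6.96 TPM). In the mural list 6 genes were higher in replicate 1 and 0 in replicate 2, and Acta2 had 0 counts. Only 2 mural genes reached the mean of 1 TPM asked of a 2-fold call. Endothelial genes were split: 3 of 8 were more than 2-fold higher in replicate 1, but 4 were higher in each area, and Ly6c1 at 77.1 and 37.1 TPM made up most of the sums of 114 and 52.8 TPM. In the oligodendrocyte list 5 of 8 genes were more than 2-fold higher in replicate 2 (574 and 1091 TPM), and in the erythrocyte list 4 of 5 were (16.0 and 586 TPM). None of the 6 excitatory neuron genes was beyond 2-fold (1396 and 1603 TPM), nor any of the 6 astrocyte genes (544 and 626 TPM). Genes of other layers differed too. In the layer 6 corticothalamic list 4 of 6 genes were higher in replicate 2, and Rprm and Syt6 (0.13 and 3.72 TPM) were so by more than 2-fold. In the layer 2/3 list 5 of 6 genes were higher in replicate 1, and Calb1 (9.85 and 2.11 TPM) and Rasgrf2 (7.86 and 2.07 TPM) were so by more than 2-fold. In the layer 4 list 1 gene was beyond 2-fold in each direction. The part of these classes and layers in the differences of Parm1, Crym, Lypd1, Cntn6 and Tcerg1l on one side, and Deptor, Cdh13, Rbp4, Hsd11b1 and S100a10 on the other, was not tested.

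The leading transcript of each member was mostly the same in both areas. Of the 19 members with at least 100 counts in both, 16 had the same leader and Sulf2, Hsd11b1 and Rapgef3 did not. Deptor was led by a transcript of 8547 bases (ENSMUST00000096433.5), with 48.7% of the gene's TPM in replicate 1 and 73.0% in replicate 2. That transcript stood at 5.57 and 28.2 TPM and the 3300-base transcript at 4.01 and 5.55 TPM, so most of the Deptor difference lay in the longer form. Cdh13 was led by a 3785-base transcript at 54.3% and 66.1%, with a 620-base transcript at 10.3 and 20.4 TPM next. Igfbp4 was led by a 785-base transcript at 56.2% and 59.0%, although its 3831-base transcript held more counts, 2083 and 2874 against 525 and 772.

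The genes without a common leader were split finely. Hsd11b1 was led by a 1256-base transcript in replicate 1, at 56.99%, and by a 1623-base transcript in replicate 2, at 44.7%. Sulf2 was led by its 4580-base transcript in replicate 1, at 44.6%, and by its 1802-base transcript in replicate 2, at 35.8% against 31.2%. Rapgef3 had 17 listed transcripts, of which a 1422-base one led in replicate 1 at 39.8% and a 3395-base one in replicate 2 at 47.5%. By the posterior mean, that second transcript of Rapgef3 held only 11.9% in replicate 2 and the 1422-base transcript 15.8%. With 109 and 198 counts, the order of the Rapgef3 transcripts is not settled at this depth.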

How the data were processed

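RNA was measured in 2 libraries of 1 group, numbered and grouped by the labels. The 30 members and all other gene lists were chosen with earlier results of these data known. The deposited gene and transcript tables give an expected count per feature. TPM, per the file headers, was scaled by the authors over every feature, with spike-ins and mitochondrial genes among them, with a posterior mean of TPM and interval bounds beside it. The deposited transcript tables give each transcript's percent of its gene. The assembly was mm10 with annotation release M4, per the text files deposited with the tables. The program, aligner and strand setting are not given in the sources used here, so reads of overlapping genes cannot be told apart. In the GENCODE M21 annotation 10 members share exon bases with an opposite-strand gene. Symbols and positions came from M21 (GRCm38), where 42462 of 43346 Ensembl gene rows had a symbol. Rows that name no gene, 26248 of them, held 7.79e-05% and 1.77e-05% of the counts and were left out.

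Totals were 26059117 and 28276843 expected counts. A chi-square of 68.5 per degree of freedom, over 14067 genes whose counts summed to 50 or more, separated the libraries, so neither is a copy of the other. Whether the areas came from separate animals is not settled by the labels, and each SD is the spread between them. Detection was 1 TPM. The difference of a gene was the log2 ratio of TPM + 1, replicate 1 over 2, which understates changes of low genes, and 2-fold was asked of genes at a mean of at least 1 TPM. Count ratios per total have exact Clopper-Pearson 95% intervals on rounded counts. No test was made, since each side is 1 library. All 30 members are named by rule, and of other lists the 3 highest genes of a list beside a result. Osr1, Chodl, Calb2, Acta2, Syt6 and Rasgrf2 were named after their values were seen. Leading transcripts were taken for members with at least 100 counts in both libraries. A transcript was placed at a RefSeq start within 100 bases. Deposited transcript lengths differ from M21 for several members, most for Sulf2-207, with 1802 against 3808 bases.

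Alternatives were other minimums (0.5 and 5 TPM, 10 counts), a pseudocount of 0.1, CPM, CPM with TMM factors from edgeR 4.0.16 in R 4.3.3, median-of-ratios factors, posterior mean TPM, TPM rescaled to nuclear genes, list medians, and leaving out a library or the highest member. The scripts, tested on simulated data, ran in Python 3.11.15 with matplotlib 3.10.9, scipy 1.17.1, pandas 2.3.3 and numpy 2.4.6.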

Additional observations from a re-analysis of the deposited data

How the results depend on the processing

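The number of members beyond 2-fold, 10, stayed between 8 and 12 under the alternatives of pseudocount, filter and scaling. The even split did not always hold. Higher in replicates 1 and 2 were 5 and 7 with a pseudocount of 0.1, TMM factors or median-of-ratios factors. At a mean of at least 5 TPM they were 3 and 5. Members at 1 TPM in both areas numbered 23, and 12 with a minimum of 5 TPM. With TPM of nuclear genes alone the list medians were 49.3 TPM for the shared genes, 1.58 for the extratelencephalic, 2.53 for the near-projecting and 15.03 for the subcerebral and deep layer genes. Without the highest member of each list the medians were 27.5 TPM for the shared, 0.855 for the extratelencephalic, 4.53 for the intratelencephalic and 1.56 for the near-projecting genes, and the posterior mean gave the last 2.30 TPM. With a pseudocount of 0.1 the intratelencephalic list lay 2.11 above the near-projecting and 3.18 above the extratelencephalic list, the near-projecting list 1.08 above the extratelencephalic, and the near-projecting median log2 ratio was 0.996. Without the highest members the intratelencephalic list lay 1.66 above the extratelencephalic and the near-projecting list only 0.35 above it, or 0.43 by medians over members. By median log2 ratio the intratelencephalic list differed more between the areas than the near-projecting list with TPM (-0.82 and 0.54), but less with CPM (-0.71 and 0.82). No list median or list difference changed sign under these alternatives. Of 29 member log2 ratios, those of Stac and Trhr changed sign under some scalings. Median log2 ratios of all genes lay between -0.063 and 0.0098 over the scalings. No paired analysis was possible because there was 1 group. Depth limits the members with few counts: Slco2a1, Vwc2l, Nxph3, Stac, Batf3 and Chrna6.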
